A study of Thermochaetoides thermophila with 9 samples.

Results

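CTHT_0052990, annotated as a calcium-binding mitochondrial carrier protein, and CTHT_0016040, annotated as a mitochondrial dicarboxylate transporter, are 2 of the 7785 genes in the count table of the thermophilic fungus Chaetomium thermophilum. They were taken by locus tag from the study's list of 50 genes with the most significant changes between xylose and glucose, on the side that was higher in xylose. The values of the xylose against glucose contrast therefore chose both genes, and for each gene these values are given as a description with no test. Both genes were among the 6904 genes that passed the filter on low counts.

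All 9 libraries came from whole mycelium of the wildtype, grown in rich medium and then kept for 48 h in a minimal medium without sugar, at 50 °C according to the labels. The cultures then spent a further 6 h in the same sugar-free medium (reference), in medium with 1% (w/v) D-glucose, or in medium with 1% (w/v) D-xylose, with 3 biological replicates in each condition. The study's methods add a liquid preculture in glucose-containing medium, give a shorter time without sugar and name the 6 h only for the sugars. A figure legend of the study gives the reference 6 h too, but a higher temperature. The sugar-free medium contains peptone and yeast extract, so amino acids were present in every condition. Polyadenylated RNA was sequenced, and the table holds the number of reads per gene and library. In whole mycelium, fewer hyphae that express a gene and less RNA per hypha cannot be told apart.

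Mitochondrial carriers are proteins of the inner mitochondrial membrane that exchange metabolites between cytosol and matrix. In mammals and yeast the aspartate/glutamate carriers export aspartate from the matrix in exchange for glutamate, and together with malate carriers, malate dehydrogenases and aspartate aminotransferases they form a shuttle that brings the reducing power of cytosolic NADH into mitochondria. The mammalian aspartate/glutamate carriers bind calcium through an extension on the cytosolic side. The dicarboxylate carrier, known from yeast and mammals, exchanges malate or succinate for phosphate. In C. thermophilum the substrates of both proteins are known here from annotation only, and the orthology annotation of the study places CTHT_0052990 with the aspartate/glutamate carriers.

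The libraries held between 38806913 and 52229013 counts, so that 3 reads, the limit that a count of 0 allows, corresponded to 0.0530 to 0.109 CPM (reads of a gene scaled to the TMM-adjusted size of its library). A single rRNA gene, CTHT_0000050, took between 7.36% and 32.0% of the counts of a library, and its share differed most among the reference and glucose replicates. The reference replicates also differed among themselves in respiratory genes: reference replicate 2 was the highest and reference replicate 3 the lowest of the 3 for 17 of 17 annotated subunits of NADH-ubiquinone oxidoreductase. Replicate 2 was also the highest for 14 of 16 genes of the tricarboxylic acid cycle and 5 of 5 genes of pyruvate entry, and replicate 3 the lowest for 13 and 4 of them. Without reference replicate 2 the median log2-fold change of the NADH-ubiquinone oxidoreductase subunits was 2.13 in place of 1.65 in xylose and 1.83 in place of 1.23 in glucose. The part of this spread in the comparisons with the reference was not tested, and for some genes values without single libraries are given where they change a call. CPM values of different genes are not compared below, because they are not divided by gene length.

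CTHT_0052990 was highest in xylose, intermediate in the reference and lowest in glucose. Its transcript level was 13.3, 8.41 and 16.4 CPM in the 3 reference libraries, 5.91, 4.30 and 4.04 CPM in the glucose libraries, and 107, 78.1 and 71.7 CPM in the xylose libraries. These levels rest on 391 to 689 reads in the reference, 111 to 316 reads in glucose and 3600 to 6064 reads in xylose. No replicate of any condition overlapped with those of another, and the lowest xylose library lay far above the highest reference library. The means were 12.7 ± 4.05 CPM in the reference, 4.75 ± 1.02 CPM in glucose and 85.6 ± 18.9 CPM in xylose (SD, n = 3 each).

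CTHT_0016040 was also highest in xylose, but the reference and glucose were close to each other. Its level was 6.09, 4.56 and 4.32 CPM in the reference, 4.45, 2.76 and 3.46 CPM in glucose, and 40.5, 53.4 and 39.5 CPM in xylose. The underlying reads numbered 181 to 314 in the reference, 95 to 238 in glucose and 2009 to 2462 in xylose. The 3 xylose libraries stood clear of the 6 others, whereas glucose replicate 1 lay above the lowest reference library. The means were 4.99 ± 0.962 CPM in the reference, 3.56 ± 0.851 CPM in glucose and 44.5 ± 7.78 CPM in xylose (SD, n = 3 each).

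**Figure D1:**
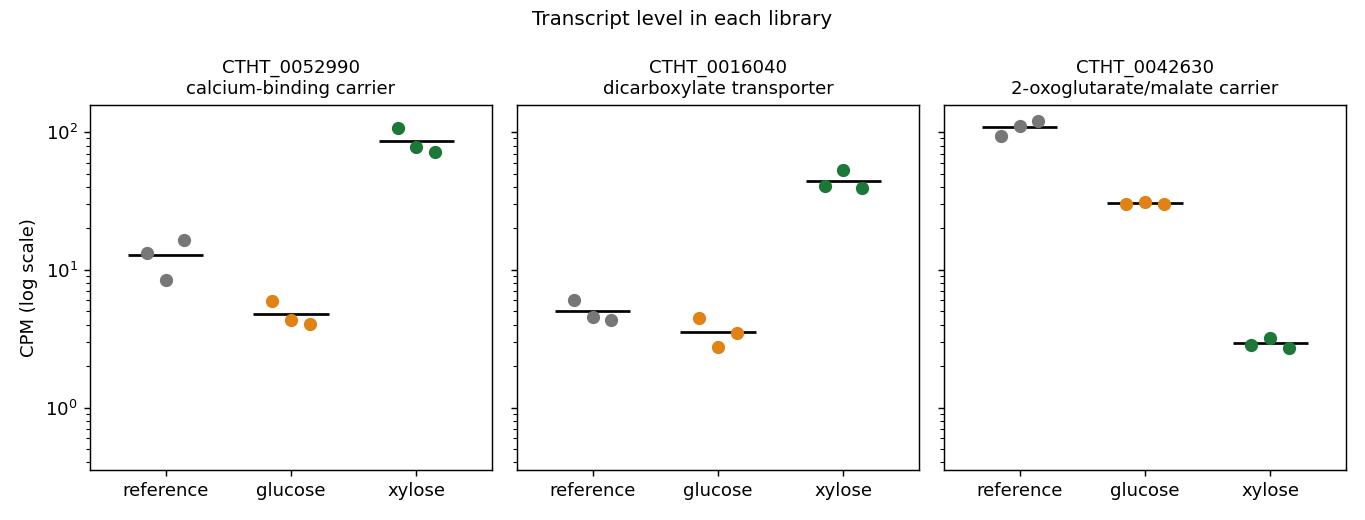
Transcript level of both carrier genes and of the 2-oxoglutarate/malate carrier CTHT_0042630 in CPM (y axis, log scale) in each library by condition (x axis). Points are libraries and lines are means of 3 replicates. The xylose points of CTHT_0052990 (71.7 to 107 CPM) and CTHT_0016040 (39.5 to 53.4 CPM) lie above all others of the same gene, and the xylose points of CTHT_0042630 lie below all others of that gene.

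Whether a gene responded to xylose was asked by comparing the xylose with the reference libraries. This comparison shares its xylose libraries with the contrast that chose the genes, so it is not independent of that choice. CTHT_0052990 had a log2-fold change of 2.75 (SE 0.31) in xylose against the reference, that is 6.72-fold, with an adjusted p of 2.57e-05 in edgeR's quasi-likelihood test. CTHT_0016040 had a log2-fold change of 3.15 (SE 0.29) in xylose against the reference, that is 8.90-fold, with an adjusted p of 8.23e-06 in edgeR's quasi-likelihood test. Both genes are thus differentially expressed genes (DEGs, adjusted p under 0.05), in a comparison in which 64.6% of all genes tested were DEGs, 32.3% were higher and 32.4% lower in xylose. Ordered by this log2-fold change from the highest, CTHT_0016040 stood at position 400 and CTHT_0052990 at position 627 of 6904 genes.

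In glucose against the reference, the call differed between the genes. For CTHT_0052990 the level was 2.67-fold lower in glucose, at a log2-fold change of -1.42 (SE 0.30) and an adjusted p of 0.00292 in edgeR's quasi-likelihood test. The share of genes called in this comparison was 49.5%, with 24% of all genes tested higher and 25.4% lower in glucose. This split moved with the processing: 1659 genes were higher and 1757 lower, against 2022 and 1409 with no filter on low counts and 1708 and 1146 without glucose replicate 1. CTHT_0016040 did not pass the test: its log2-fold change was -0.49 (SE 0.27), with an adjusted p of 0.159 in edgeR's quasi-likelihood test, and its replicates overlapped. This comparison shares its glucose libraries with the contrast that chose the genes.

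That a test was passed by one carrier and not by the other does not show that their responses to glucose differed, and the difference was tested on the ratio of their reads within each library. The log2 ratio of reads of CTHT_0052990 to reads of CTHT_0016040 was 1.13, 0.88 and 1.93 in the reference, 0.41, 0.64 and 0.22 in glucose, and 1.40, 0.55 and 0.86 in xylose. The 3 glucose ratios lay below the 3 reference ratios, and the xylose ratios overlapped with both. An exact permutation test of the ratio over the 3 conditions gave p = 0.0929, where 0.00357 is the smallest p that all assignments of the libraries to conditions allow. Between glucose and the reference the mean log2 ratio differed by -0.89 (two-sided exact permutation p = 0.1), and 0.1 is the smallest p that 3 against 3 libraries can give. The differences were -0.37 for xylose against the reference (exact p = 0.4) and 0.51 for xylose against glucose (exact p = 0.2). Adjusted over these 3 pairs, the p-values were 0.3, 0.4 and 0.3. None of the 3 pairwise tests could pass 0.05, so a different response of the carriers to either sugar was not resolved by these libraries. Both genes were chosen for a large change between xylose and glucose. Tests of their ratio that use the xylose or glucose libraries are therefore not independent of that choice.

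**Figure D2:**
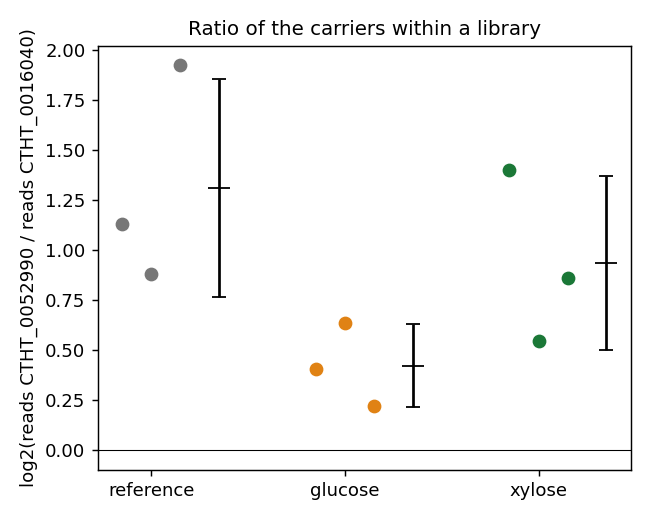
Ratio of the reads of CTHT_0052990 to the reads of CTHT_0016040 within each library (y axis, log2 scale) by condition (x axis). Points are libraries, and the black bars show the mean and SD of 3 replicates. The glucose libraries (0.22 to 0.64) lie below the reference libraries (0.88 to 1.93), and the xylose libraries spread over both ranges.

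The contrast that chose the genes combines both changes. In xylose against glucose the log2-fold change was 4.17 (SE 0.33, 18.0-fold) for CTHT_0052990 and 3.64 (SE 0.30, 12.5-fold) for CTHT_0016040. Of the 6904 genes, 28.2% were called higher and 22.6% lower in xylose than in glucose. Ordered by this log2-fold change, CTHT_0052990 stood at position 17 and CTHT_0016040 at position 46 from the highest. Against the reference, the same genes stood much further from the top of the order in xylose, at positions 627 and 400. In glucose against the reference CTHT_0052990 was at position 995 and CTHT_0016040 at position 2457 from the lowest value.

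The list of 50 genes was cut by significance. Ordered by p in a Wald fit of DESeq2, the test named by the study, CTHT_0052990 was at position 20 and CTHT_0016040 at position 25, so neither was close to the cut. In that fit the gene at position 50 was CTHT_0042460, a fructose-1,6-bisphosphatase with a log2-fold change of -4.07, and the gene at position 51 was CTHT_0008010 with a log2-fold change of 3.37. Among the 17 genes of the list that were higher in xylose, which include xylosidases, a xylitol dehydrogenase and ribosome assembly factors, the carriers ranked 5 (CTHT_0052990) and 10 (CTHT_0016040) by their xylose against glucose change. By their change in xylose against the reference they ranked 15 and 11 of these 17, whose median log2-fold change was 3.39. In glucose against the reference, the log2-fold changes of the 17 genes ran from -3.70 for the xylitol dehydrogenase CTHT_0073860 to 2.94 for the FAD-binding protein CTHT_0043670, and both carriers lay inside this range.

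Other carriers of the same protein family give the setting for these values. The annotations used here name 12 other carriers of this family, and all 12 passed the filter on low counts. They include CTHT_0007200, which is annotated as peroxisomal and is counted with the others. Parts of these annotations came from lists of genes that decreased in these same libraries, so the carrier list is incomplete and holds too many genes that fell. Of the 12, 3 were DEGs higher in xylose than in the reference, 7 were lower and 2 did not pass the test (median log2-fold change -1.40), beside 32.3% of all genes tested that were called higher and 32.4% that were called lower. In glucose, 3 were higher, 8 were lower and 1 did not pass the test (median -1.05), beside 24% of all genes called higher and 25.4% called lower. The median over all genes tested was -0.05 in both comparisons. The glucose calls depended on single libraries: 7 of the 12 were called without reference replicate 1, each of them lower, and the calls were 3 higher and 4 lower without glucose replicate 1, and 1 higher and 6 lower without glucose replicate 2.

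Among all 14 carriers, CTHT_0052990 and CTHT_0016040 were the 2 that combined a call higher in xylose with a negative log2-fold change in glucose, both against the reference. Over all genes tested, 420 genes (6.08%) had this combination, and 80 genes (1.16%) were called in both directions, as CTHT_0052990 was. Selection for a large difference between xylose and glucose favours this combination, so it is a description of the chosen genes.

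The 3 other carriers that were higher in xylose were also called higher in glucose, where CTHT_0052990 was lower. The phosphate carrier CTHT_0005820, which brings phosphate into the matrix for ATP synthesis, ranged from 69.9 to 394 CPM in the reference, from 654 to 754 CPM in glucose and from 945 to 1501 CPM in xylose. Its log2-fold change was 2.80 (SE 0.63, edgeR adjusted p = 0.00240) in xylose and 1.98 (SE 0.61, edgeR adjusted p = 0.0199) in glucose. The glucose call was lost without reference replicate 1 (adjusted p = 0.0711) or reference replicate 3 (adjusted p = 0.0609), and without reference replicate 2 the values were larger, at 3.97 in xylose and 3.28 in glucose. The ADP/ATP carrier CTHT_0015330, which exports ATP from the matrix, had log2-fold changes of 2.15 (SE 0.66, edgeR adjusted p = 0.0138) in xylose and 2.22 (SE 0.66, edgeR adjusted p = 0.0170) in glucose. Without reference replicate 1 neither call held (adjusted p = 0.0589 and 0.0707), and the glucose call was also lost without reference replicate 3 (0.0608) or glucose replicate 2 (0.0514). Without reference replicate 2 the values of CTHT_0015330 were 3.13 in xylose and 3.32 in glucose. CTHT_0005150, annotated as a calcium-binding phosphate or ATP-Mg carrier, had values of 0.70 in xylose (edgeR adjusted p = 0.0402) and 0.71 in glucose (edgeR adjusted p = 0.0490), and either call was lost in several alternative fits.

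The opposite direction to CTHT_0052990 and CTHT_0016040 in xylose was seen for CTHT_0042630, annotated as a 2-oxoglutarate/malate carrier, a protein that in mammals is the malate carrier of the shuttle. It is on the other side of the study's list of 50 genes, so it too was chosen on these libraries. CTHT_0042630 had 94.2, 110 and 120 CPM in the reference, 30.2, 31.2 and 30.0 CPM in glucose, and 2.86, 3.21 and 2.73 CPM in xylose. The 3 conditions were fully separated, with xylose lowest. The log2-fold changes against the reference were -5.20 (SE 0.24, edgeR adjusted p = 7.50e-07) in xylose and -1.83 (SE 0.21, edgeR adjusted p = 9.36e-05) in glucose.

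The other 6 carriers that fell in xylose were the thiamine pyrophosphate carrier CTHT_0053070 (log2-fold change -2.58 in xylose and -4.78 in glucose), the carnitine carrier CTHT_0035320 (-2.47 and -2.41), CTHT_0021790, annotated as a citrate or a succinate-fumarate carrier (-3.27 and -2.01), CTHT_0033220 (-2.11 and -0.86), the peroxisomal adenine nucleotide carrier CTHT_0007200 (-1.80 and -1.01) and the folate carrier CTHT_0063530 (-1.01 and -0.80). In glucose CTHT_0033220 did not pass the test (edgeR adjusted p = 0.106), but it passed without reference replicate 3 (-1.17, edgeR adjusted p = 0.0376). Without reference replicate 2 its glucose value was -0.11 (edgeR adjusted p = 0.740). The glucose calls of CTHT_0021790, CTHT_0007200 and CTHT_0063530 were lost in at least 1 fit that left out a library. The oxaloacetate carrier CTHT_0071090 and CTHT_0008520, whose substrate is not named, did not pass the test in xylose (-0.61, edgeR adjusted p = 0.355 and -0.19, edgeR adjusted p = 0.523). Both were lower in glucose, as CTHT_0052990 was (-2.41, edgeR adjusted p = 0.00604 and -1.10, edgeR adjusted p = 0.00460), and the call of CTHT_0008520 was lost without glucose replicate 1 (adjusted p = 0.0552). Without reference replicate 2 the values of CTHT_0071090 were 0.37 in xylose (edgeR adjusted p = 0.439) and -1.33 in glucose (edgeR adjusted p = 0.0159), so its sign in xylose depended on that library.

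**Figure D3:**
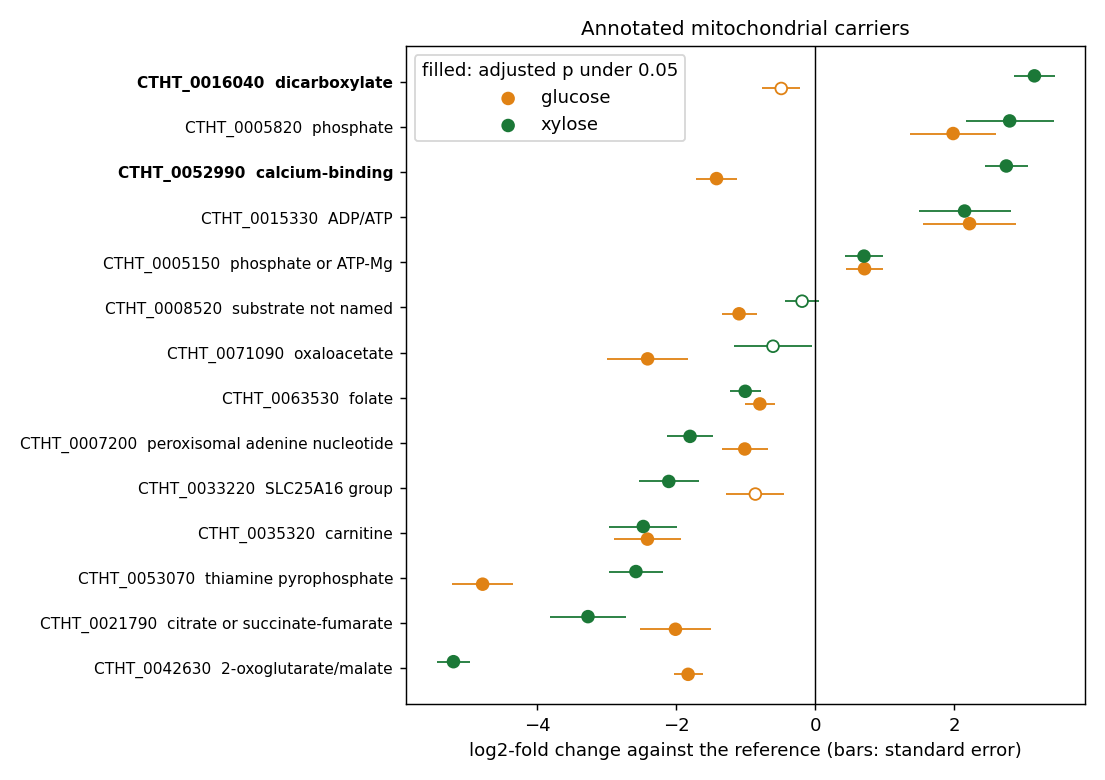
Log2-fold changes against the reference (x axis) of the 14 annotated carriers of the mitochondrial carrier family (y axis) in glucose and xylose. Points are fitted values from 3 libraries a condition, bars are standard errors, and filled points have an adjusted p under 0.05. Only CTHT_0052990 and CTHT_0016040 (bold) have a filled point above 0 in xylose and a point below 0 in glucose.

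The enzymes that work on the substrates of both carriers did not move in 1 direction. Of 7 annotated genes for malate dehydrogenases, aspartate aminotransferases, malic enzyme and glutamate dehydrogenases, 3 rose and 2 fell in xylose against the reference (median log2-fold change 0.84), and in glucose also 3 rose and 2 fell (median 0.85). Over all genes tested, 64.6% were called in xylose (32.3% higher and 32.4% lower) and 49.5% in glucose (24% higher and 25.4% lower). In glucose 3 instead of 5 genes were called without glucose replicate 1 or without glucose replicate 2. The malate dehydrogenase CTHT_0032190, which interconverts malate and oxaloacetate, had 80.1, 144 and 45.0 CPM in the reference, 464, 399 and 429 CPM in glucose, and 1604, 1712 and 2043 CPM in xylose. The 3 conditions did not overlap, and glucose lay above the reference, where for CTHT_0052990 it lay below. The log2-fold change was 4.31 (SE 0.49, edgeR adjusted p = 2.58e-05) in xylose and 2.26 (SE 0.44, edgeR adjusted p = 0.00200) in glucose.

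The aspartate aminotransferase CTHT_0000600, which makes aspartate, rose in xylose (3.25, SE 0.55, edgeR adjusted p = 0.000398). Its glucose value of 1.40 (edgeR adjusted p = 0.0419) lost the call in 6 of the 9 fits that left out a library, namely those without reference replicate 1, reference replicate 3, any of the glucose replicates or xylose replicate 3. Without reference replicate 2 the values of CTHT_0000600 were 4.07 in xylose and 2.34 in glucose. The glutamate dehydrogenase CTHT_0027970 rose in both sugars (1.97 in xylose and 2.32 in glucose). The genes that fell were the malic enzyme CTHT_0062150, which turns malate into pyruvate (-1.84 and -1.93), and the NAD-specific glutamate dehydrogenase CTHT_0027020 (-3.33 and -1.93), whose glucose call was lost without glucose replicate 1 or 2 (adjusted p = 0.0676 and 0.0606). The second malate dehydrogenase CTHT_0070260 (0.84 in xylose and 0.85 in glucose) passed the test in either sugar only without reference replicate 2 (1.70 and 1.83), and the second aspartate aminotransferase CTHT_0031520 had values of 0.32 and -0.08.

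Around these enzymes, 8 of 16 annotated genes of the tricarboxylic acid cycle, which makes and uses malate and succinate, were higher and 1 was lower in xylose (median 0.84 on the log2 scale), and 2 were higher in glucose (median 0.13). The share of all genes that was called in either direction was 64.6% in xylose and 49.5% in glucose, above the 56.3% and 12.5% of this list. By direction, 32.3% of all genes tested were higher and 32.4% lower in xylose, and 24% were higher and 25.4% lower in glucose. Both malate dehydrogenases are counted here too, and without reference replicate 2 the count in glucose was 6. The NAD-dependent isocitrate dehydrogenase CTHT_0033640 had a log2-fold change of 2.96 (SE 0.41) in xylose. The gene that fell was the citrate synthase CTHT_0010810 (-1.60, edgeR adjusted p = 0.0307), a call that was lost without reference replicate 2, xylose replicate 1 or xylose replicate 2 (adjusted p = 0.102, 0.0754 and 0.0950). Of the 8 that rose, the fumarate hydratase CTHT_0012530 (0.82, edgeR adjusted p = 0.0378) lost its call in 5 of the 9 fits that left out a library. The succinate-CoA ligase CTHT_0068800 (1.60, edgeR adjusted p = 0.0188), whose replicates overlapped, lost it in 3 of the 9. All 5 genes of pyruvate entry, that is pyruvate carriers of another protein family and pyruvate dehydrogenase subunits, were higher in xylose (median 1.92) and 3 in glucose (median 0.72), where 32.3% and 24% of all genes tested were called higher, with the pyruvate carrier CTHT_0072990 at 3.97 (SE 0.37) in xylose. In glucose 1 of the 5 was called without reference replicate 1, reference replicate 3 or glucose replicate 2, or with scaling by total counts.

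Of the 17 annotated subunits of NADH-ubiquinone oxidoreductase, which oxidizes matrix NADH, 15 were called higher in xylose (median 1.65) and 11 in glucose (median 1.23), beside 32.3% and 24% of all genes tested, with CTHT_0063510 at 2.81 in xylose. The glucose count was 6 without reference replicate 1, reference replicate 3 or glucose replicate 2, 7 without glucose replicate 3 and 17 without reference replicate 2. Of 6 genes of the glyoxylate cycle and of gluconeogenesis, 5 were lower in xylose (median -3.28) and 3 in glucose (median -0.78), beside 32.4% and 25.4% of all genes tested. The annotations behind this list were cut by expression or by change, so it is incomplete and may hold too many genes that fell. The glucose call of the fructose-1,6-bisphosphatase CTHT_0042460 (-1.09, edgeR adjusted p = 0.0391) was lost in 7 of the 9 fits that left out a library, so that 2 genes were called there. The largest fall was that of the phosphoenolpyruvate carboxykinase CTHT_0044390 (-5.17, SE 0.58), which like both carriers was chosen for the study's list on these libraries, and the gene that did not pass was the isocitrate lyase CTHT_0010800 (0.16, edgeR adjusted p = 0.663).

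**Figure D4:**
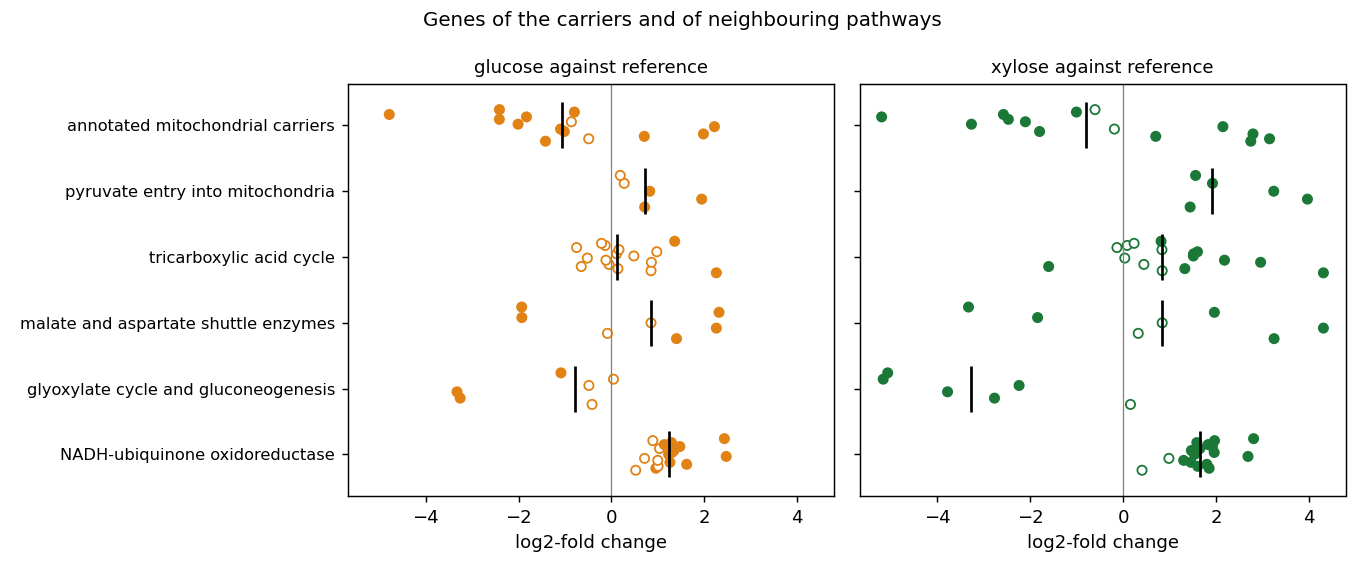
Log2-fold changes against the reference (x axis) of the 14 annotated carriers and of the genes of 5 pathways (y axis) in glucose (left) and xylose (right). Points are genes, filled where the adjusted p is under 0.05, and vertical bars are medians. The median of the genes of the glyoxylate cycle and gluconeogenesis in xylose is -3.28 and that of the genes of pyruvate entry is 1.92.

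The genes whose pattern was most like that of each carrier were found by Pearson's r of log2 CPM over the 9 libraries. The points are 3 conditions of 3 libraries with shared depth and scaling, so r mostly describes the order of the conditions. For CTHT_0052990 the 5 highest were CTHT_0053440 (r = 0.990), CTHT_0060630 (0.989), CTHT_0025510 (0.989), CTHT_0048530 (0.988) and CTHT_0006830 (0.987). CTHT_0060630, annotated as a protein associated with the U3 small nucleolar RNA of ribosome assembly, had a log2-fold change of 2.38 in xylose and -1.28 in glucose against the reference.

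For CTHT_0016040 the 5 highest were CTHT_0004820 (r = 0.990), CTHT_0062220 (0.988), CTHT_0034460 (0.985), CTHT_0066670 (0.984) and CTHT_0059020 (0.984). CTHT_0062220, an rRNA-processing protein that is also in the list of 50 genes, had 5.82, 4.05 and 4.75 CPM in the reference, 3.13, 2.68 and 2.11 CPM in glucose, and 42.2, 41.5 and 40.1 CPM in xylose. Its log2-fold change was 3.08 in xylose and -0.88 in glucose against the reference. The r between the carriers was 0.959. Among the other genes of the 6904 tested, this put CTHT_0016040 at position 66 for CTHT_0052990 and CTHT_0052990 at position 130 for CTHT_0016040.

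The genes that RefSeq (assembly CTHT_3.0) places next to each carrier, neither of them overlapping it, differed from it in direction or in call in at least 1 sugar. A difference in call alone does not show different responses, and differences between neighbour and carrier were not tested. Beside CTHT_0052990, CTHT_0052980 did not pass the test in xylose against the reference (0.79, edgeR adjusted p = 0.120), with xylose libraries at 14.3, 3.73 and 8.80 CPM. Without xylose replicate 2, the lowest of these, it passed (1.17, edgeR adjusted p = 0.00827). On the other side, CTHT_0053000 fell in xylose (-2.87, SE 0.54, edgeR adjusted p = 0.000740), the opposite direction to CTHT_0052990. In glucose CTHT_0053000 was lower, as CTHT_0052990 was (-1.53, edgeR adjusted p = 0.0275), a call that was lost without reference replicate 1 or 3 or glucose replicate 1 or 2.

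Both neighbours of CTHT_0016040 rose in both sugars. CTHT_0016030, annotated as similar to a mitochondrial phenylalanyl-tRNA synthetase, had 26.2, 104 and 21.5 CPM in the reference, 320, 287 and 343 CPM in glucose, and 732, 1115 and 991 CPM in xylose. Its log2-fold change was 4.22 (SE 0.60, edgeR adjusted p = 0.000123) in xylose and 2.64 (SE 0.56, edgeR adjusted p = 0.00311) in glucose. CTHT_0016050 had log2-fold changes of 1.42 (SE 0.22, edgeR adjusted p = 0.000186) in xylose and 0.83 (SE 0.21, edgeR adjusted p = 0.00825) in glucose, and the glucose call was lost with scaling by total counts (0.77, edgeR adjusted p = 0.0790). In glucose both neighbours had positive values. The value of CTHT_0016040 was negative but did not pass the test (-0.49, edgeR adjusted p = 0.159), so its sign there is not established.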

How the data were processed

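The authors cultivated the mycelium, sequenced polyadenylated RNA, mapped the reads with TopHat2, used summarizeOverlaps to count reads, and deposited raw read counts per gene, without normalization, for the 9 libraries. The mode of counting for reads that map to several genes is not given in the sources used here, so near-identical genes could share reads. Every sample column was matched to a label, and groups and replicates came from the sample titles.

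Tools were edgeR 4.0.16, with limma 3.58.1 beneath it, and DESeq2 1.42.0, run under R 4.3.3. The settings were TMM normalization, filterByExpr with a minimum count of 10, and the quasi-likelihood test in 1 model of 3 conditions over all 9 libraries, with Benjamini-Hochberg adjustment over 6904 genes and a threshold of 0.05. Standard errors (SE) are the absolute log2-fold change over the root of F. CPM values carry TMM factors, and the ratio of both carriers used a pseudocount of 0.5 counts. The fit was tested on simulated data. Counting limits cover counting error only, and replicates differed by more than sampling noise. Of 7785 genes, 7472 matched RefSeq locus tags of assembly CTHT_3.0, used for gene order and type.

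Both carriers, the gene lists and the tests were chosen with earlier results of these data known. The lists follow the study's annotations as far as held, which were cut by expression or by change and are incomplete. Named are both carriers, every annotated carrier, of each list the largest rise and fall among DEGs and some further members, the 5 most similar genes and the neighbours. Further members of the lists were named after their values were seen. Alternatives were other scalings, filters and tests, blocking on the replicate number, fits of 2 conditions alone and leaving out each library. A search for the carrier family by protein sequence and features of proteins and promoters were planned and not analysed here, so the annotated carriers were used.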

Additional observations from a re-analysis of the deposited data

How the results depend on the processing

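The calls of both carriers against the reference, that is xylose higher for both, glucose lower for CTHT_0052990 and glucose not called for CTHT_0016040, held under all alternatives run. In xylose the log2-fold change ran from 2.43 to 2.98 for CTHT_0052990 and from 2.9998 to 3.32 for CTHT_0016040 over the fits that left out 1 library. In glucose it ran from -1.63 to -1.19 for CTHT_0052990 (adjusted p from 0.000676 to 0.0172) and from -0.58 to -0.32 for CTHT_0016040 (adjusted p from 0.146 to 0.444). The exact p of the ratio of the carriers over the 3 conditions ran from 0.0571 to 0.229 when 1 library was left out and was 0.0964 with a pseudocount of 5 counts. Of the 49 genes of the 5 pathways, between 13 and 33 were called in glucose against the reference when 1 library was left out. The number was 14 without reference replicate 1 or 3 and 13 without glucose replicate 2. With all libraries, 49.5% of all genes tested were called in that comparison. The number of genes called over the whole table ran from 4016 to 4670 in xylose and from 2522 to 3837 in glucose, both against the reference.

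Scaling by total counts moved the median over all genes tested, on the log2 scale, from 0.16 to 0.34 in xylose against glucose and from -0.05 to 0.06 in xylose against the reference. The split of genes called in glucose against the reference was 1659 higher and 1757 lower, and 2022 and 1409 with no filter on low counts, 1906 and 1340 when every library needed 10 counts or more, 1868 and 1528 without the rRNA gene with most reads and 1708 and 1146 without glucose replicate 1. Leaving out the rRNA gene with most reads moved it from -0.05 to 0.08 in glucose against the reference. Whether replicate numbers pair samples of different conditions was examined on log2 CPM after each gene's mean within its condition was subtracted. The r of these deviations does not describe the likeness of expression levels between libraries. Of the 9 pairs of samples with the same replicate number, the 3 of number 1 had r of 0.29, 0.21 and 0.17, and the others had r from -0.28 to 0.06. The 18 pairs with different numbers had r from -0.25 to 0.28, so the numbers were not taken to pair the samples. With the replicate number as a block, the log2-fold changes of CTHT_0052990 were 2.76 in xylose and -1.41 in glucose. Those of CTHT_0016040 were 3.18 in xylose and -0.49 in glucose, and 25 of the 49 pathway genes were called in glucose. A ratio per coding length was not run.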
